A study of Mus musculus with 6 samples.

Results

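Secretory luminal progenitor cells were picked out of 6 single-cell RNA libraries of mouse mammary tissue by the transcripts counted in each cell, so the members were chosen by measured counts of the genes named here. A cell had to hold at least 1 unique molecule (UMI, a barcode that marks 1 captured transcript) of Epcam, Elf5 and Csn3, at least 2 of Wfdc18 and none of the leukocyte gene Ptprc. At most 1 of the 4 hormone-sensing genes Prlr, Cited1, Tph1 and Cxcl15 and at most 1 of the 5 cycling genes Cenpf, Ube2c, Ccnb1, Cdc20 and Top2a could be detected. The rule found 104 members among 10064 Epcam-positive, Ptprc-negative cells (1.03%) and 22244 cells kept in all. The libraries came from female C3(1)-Tag mice (C3TAG in the labels), all of which carry the SV40 large T antigen, so no group without the transgene was compared. Prepuberty was the whole mammary gland at 5 weeks of age, DCIS the whole gland holding ductal carcinoma in situ at 14 weeks, and Tumor the mammary tumour at over 18 weeks, with 2 libraries in each state. The transgene is driven by the regulatory region of a rat prostate steroid-binding protein gene, which is not restricted to one mammary cell type.

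Luminal progenitors are the cells of the mammary ducts from which the milk-making alveolar cells arise, and the transcription factor Elf5 directs that step. Under prolactin, the kinase Jak2 activates Stat5, which together with Elf5 switches on milk protein genes such as the caseins. Even outside pregnancy a part of these cells makes lactoferrin (Ltf), transferrin (Trf) and small whey-type protease inhibitors (Wfdc18), which bind iron or act against microbes. Luminal progenitors are also discussed as a cell of origin of basal-like breast cancer, the tumour type that C3(1)-Tag mice model.

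The libraries held 2606 to 4476 kept cells and 29652183 to 60741860 UMIs each. Members held 60910 to 375088 UMIs per library, with medians of 8223.5 to 10252 UMIs per cell in 5 libraries and 32055 in Prepuberty 2. Kept barcodes shared between 2 libraries were at most 0.849% of the smaller library, and no barcode of a member was shared with a member of another library. Nothing in the labels ties a library to its own animal, so p-values here measure only the spread between these libraries. The labels name 1 digestion and 1 reagent version throughout. By the methods of the study, tumours were dissociated with a separate kit and Tumor 2 was run on newer reagents. If so, dissociation and the Tumor state cannot be told apart.

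Members were few in every library. There were 18 in Prepuberty 1, 7 in Prepuberty 2, 12 in DCIS 1, 18 in DCIS 2, 43 in Tumor 1 and 6 in Tumor 2. As shares of Epcam-positive cells these were 1.69% (exact 95% binomial interval 1.01 to 2.66), 2.64% (1.07 to 5.37), 0.692% (0.358 to 1.21), 1.05% (0.626 to 1.66), 1.21% (0.879 to 1.63) and 0.344% (0.126 to 0.746). Intervals here and below cover counting error only. Both Prepuberty libraries had larger shares than the DCIS and Tumor libraries, and DCIS and Tumor overlapped, but only the interval of Tumor 2 was apart from others, namely from both Prepuberty libraries and Tumor 1. When each cell was thinned to 3000 UMIs and the rule read again, the shares were 2.00%, 1.00%, 0.506%, 0.946%, 1.03% and 0.340%, so that Tumor 1 no longer lay below Prepuberty 2. As shares of all kept cells, which take in stroma and leukocytes, members were 0.410%, 0.194%, 0.379%, 0.450%, 0.961% and 0.230%, with Tumor 1 highest and Prepuberty 2 lowest, so the order of the states depends on the denominator. With 2 libraries against 2, an exact two-sided permutation test cannot give a p under 0.333, so no test of the share was made.

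At full depth most cells with the secretory markers were not members. Of 778 cells that met the Epcam, Ptprc, Elf5, Csn3 and Wfdc18 limits, 237 were left out for hormone-sensing genes and 437 for cycling genes. In Prepuberty 1 the hormone-sensing limit took 142 of 206 such cells, and in Tumor 1 the cycling limit took 329 of 384. In those 2 libraries the cells left out were deeper, with median UMIs of 33777.5 for the first group and 19531 for the second against 9496 and 8738 in the members of Prepuberty 1 and Tumor 1. The same held for each group left out in every library that had one, except the 2 cycling cells of Prepuberty 2. When every cell was thinned to 3000 UMIs, 32, 2, 9, 15, 68 and 6 cells of Prepuberty 1, Prepuberty 2, DCIS 1, DCIS 2, Tumor 1 and Tumor 2 met the marker limits, and 15, 2, 7, 13, 33 and 5 of them were members. The hormone-sensing limit then left out 7 cells in Prepuberty 1 and 0 elsewhere, and the cycling limit 35 in Tumor 1 and 0 to 10 elsewhere. Members were 46.9% of secretory-marker cells in Prepuberty 1 and 48.5% in Tumor 1 after thinning, against 8.74% and 11.2% at full depth, so membership moved with depth. Of the members found after thinning, 7, 2, 5, 5, 15 and 4 were also members at full depth. The plot of secretory-marker cells by library shows what each limit left out.

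**Figure D1:**
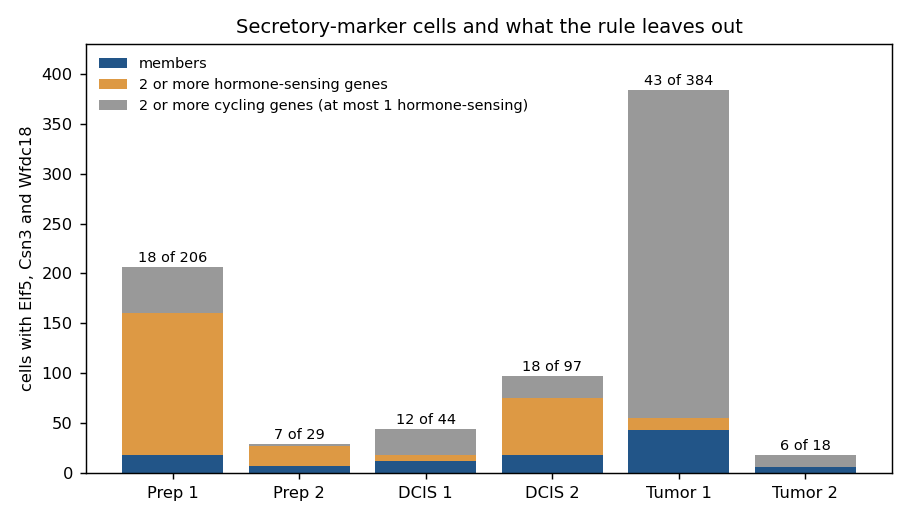
Cells with the Elf5, Csn3 and Wfdc18 limits met (y axis, number of cells) in each library (x axis), split into members, cells left out for 2 or more hormone-sensing genes and cells left out for 2 or more cycling genes. Members are 43 of 384 in Tumor 1 and 18 of 206 in Prepuberty 1.

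The widest edge of the rule lay at Elf5. Of the 104 members, 72 held exactly 1 Elf5 UMI, and 315 further cells missed membership only for having none. The members with 1 Elf5 UMI had 1270 CPM of Ltf (UMIs of the gene in every 1000000 UMIs of the summed cells) and 1811 of Trf, and the cells just outside had 866 and 1132. These values pool the 6 libraries. The order was the reverse for Ltf in Prepuberty 2, Tumor 1 and Tumor 2 and for Trf in Prepuberty 2 and Tumor 2. In Tumor 2 the cells outside held 454 Ltf UMIs of 46933 UMIs, and the members inside 177 of 40593. At the Wfdc18 edge, 3 members held 2 or 3 UMIs and 7 cells missed with 1. At the Csn3 edge, 9 members held exactly 1 UMI. At the cycling limit, 49 members had exactly 1 cycling gene and 70 cells missed with exactly 2, with 1160 and 604 CPM of Ltf. At the hormone-sensing limit, 32 members had exactly 1 gene and 26 cells missed with exactly 2, with 1203 and 1093 CPM of Ltf. As background from free RNA, 9.89% of the 1850 cells with fibroblast genes in Prepuberty 1 had 2 or more Wfdc18 UMIs. For Csn3, with a limit of 1 UMI, the share of such cells was 9.71% in Tumor 1, 6.70% in Tumor 2 and 0.440% to 3.19% in Prepuberty and DCIS. Of the 9 members with 1 Csn3 UMI, 8 were in Tumor 1. No cell with fibroblast or endothelial genes held Elf5, Csn3 and Wfdc18 together in any of the 6 libraries (0 of 1850 and 0 of 515 in Prepuberty 1).

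The label was checked against Ltf and Trf, which the rule did not read. Ltf, the iron-binding protein of milk, stood at 1567, 766, 1912, 3172, 229 and 3251 CPM in the members of Prepuberty 1, Prepuberty 2, DCIS 1, DCIS 2, Tumor 1 and Tumor 2, the order kept below. It was detected in 16 of 18, 7 of 7, 10 of 12, 17 of 18, 7 of 43 and 6 of 6 members. Tumor 1 stood apart from the other 5 libraries, and a single cell there held 77 of the 86 Ltf UMIs. Trf, the iron carrier, was at 2206, 2235, 2765, 3720, 1258 and 1313 CPM and was detected in 39 of 43 members of Tumor 1. In Tumor 1 the members met the rule and carried Trf, but their Ltf went against the label.

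Beside the other Epcam-positive cells of the same library, members carried a secretory profile. Because the rule chose the cells, this is a description with no test. Among 2488 genes with a mean of at least 50 CPM in members, 208 were higher and 351 lower in members in each of the 4 libraries with 10 or more members. Ltf had a median log2 ratio of 3.35 over those 4 libraries (a pseudocount of 1 CPM was added) and was higher in members in 6 of 6 libraries. The largest of those 4 ratios, 4.18 in Tumor 1, rests on the single cell that held 77 of the 86 Ltf UMIs. Also higher in 6 of 6 were Trf (3.05), the casein Csn1s1 (2.73, with a single UMI in the members of Tumor 1), the folate receptor Folr1 (2.37), the siderophore-binding protein Lcn2 (2.03), the lipopolysaccharide co-receptor Cd14 (1.64) and Mfge8 (1.61), a protein of milk fat globules. The mucin Muc15 (2.44) and Xbp1 (1.74), a transcription factor of secretory cells, were higher in 5 of 6. Lower in members in 6 of 6 libraries were the chemokine Ccl2 (-3.44), Ly6d (-3.28), the matrix protein Sparc (-3.17), the protease inhibitor Timp1 (-2.61) and the antiprotease Slpi (-2.40). Not every whey-type inhibitor followed Wfdc18, since Slpi was lower and Wfdc2, at -2.72, was lower in 5 of 6 libraries.

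The caseins, the main proteins of milk, varied widely between libraries. Csn2, beta-casein, was at 610, 4.82, 2859, 2056, 0 and 16.4 CPM in the 6 libraries. Csn1s1, an alpha-casein, was at 897, 145, 5158, 2310, 2.67 and 279 CPM. Csn1s2a was at 860, 43.4, 9182, 905, 0 and 82.1 CPM. In all 3 genes both DCIS libraries lay above both Prepuberty and both Tumor libraries, and Tumor 1 was lowest. None of these differences passed the test described below, where the adjusted p for Csn2 was 0.947 for DCIS against Prepuberty and 0.102 for Tumor against DCIS. Casein RNA was held unevenly: Csn1s1 was detected in 9 of 18, 3 of 7, 9 of 12, 15 of 18, 1 of 43 and 4 of 6 members, and 1 cell of DCIS 1 held 885 of the 1561 Csn1s2a UMIs of that library. The secretory-marker cells that the limits left out carried caseins too. In DCIS 1 the cells left out for cycling genes had 5849 CPM of Csn1s1 and 4281 of Csn2, above the members. In DCIS 2 the cells left out for cycling and for hormone-sensing genes had 3512 and 2636 CPM of Csn1s1, above the members, and 1325 and 1322 of Csn2, below them. In Prepuberty 1 both groups were below the members, at 226 and 95.1 CPM of Csn1s1. The plot of secretory and iron-binding genes shows members beside all other Epcam-positive cells.

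**Figure D2:**
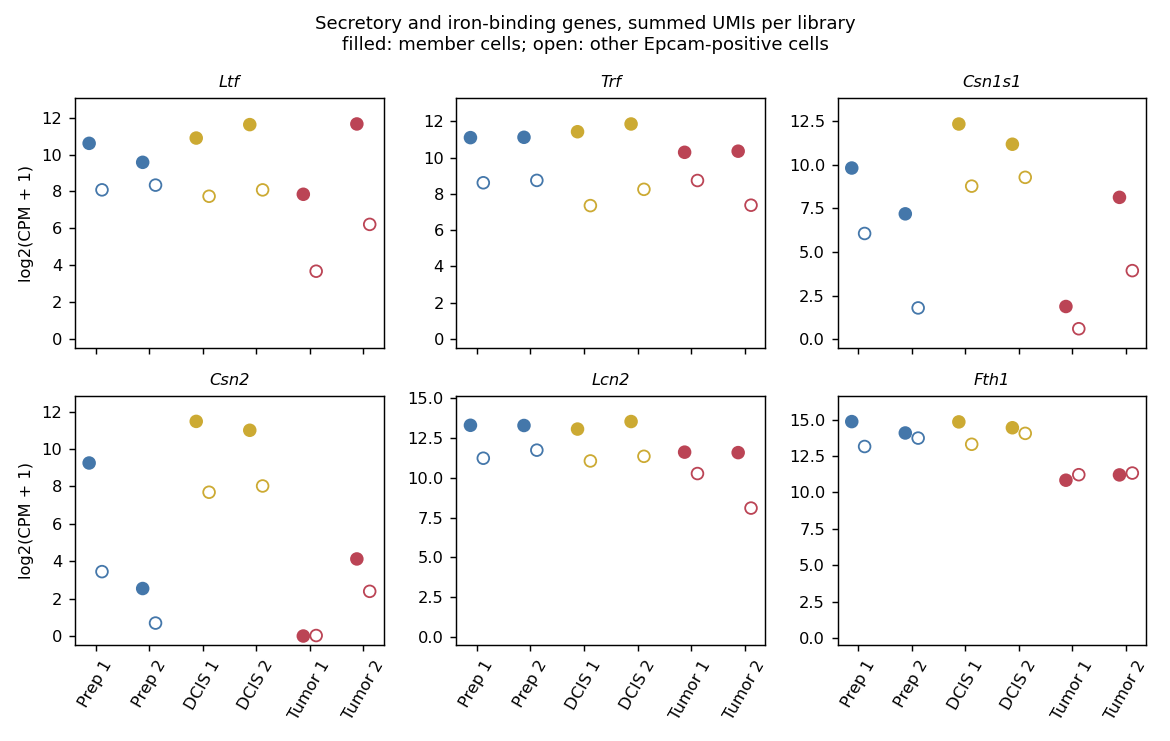
Levels of Ltf, Trf, Csn1s1, Csn2, Lcn2 and Fth1 (y axis, log2 of CPM + 1; each panel from 0) in each library (x axis), with filled points for summed members and open points for summed other Epcam-positive cells. Members are above other cells for Ltf, Trf, Csn1s1 and Lcn2 in all 6 libraries, for Csn1s1 in Tumor 1 by a single UMI (2.67 against 0.516 CPM), and Fth1 is lowest in both Tumor libraries in both kinds of cell.

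The promoters of these genes are shown for the letters TTCNNNGAA, the palindrome that Stat5 is known to bind. The sequences are RefSeq's, on GRCm38.p6, and 10 of 13 genes looked up had an entry (Csn3, Trf and Csn1s2b were not matched). Capitals mark the palindrome, which reads the same motif on both strands. It was found in 1 copy in the 250 bases before the start of Csn1s1 (chr5:87665958-87666207, plus strand, first base at -100) and of Csn2 (minus strand, first base at -93), and in none of Elf5, Wfdc18, Ltf, Csn1s2a, Wap, Lalba, Lcn2 and Fth1. Of 32851 promoters of this length, 2306 (7.02%) hold it. The Csn1s1 promoter is given whole, Csn2 as the palindrome with 10 bases on each side, and Wfdc18 (chr11:83708754-83709003, plus strand) as the rule's most abundant marker without it.
Csn1s1: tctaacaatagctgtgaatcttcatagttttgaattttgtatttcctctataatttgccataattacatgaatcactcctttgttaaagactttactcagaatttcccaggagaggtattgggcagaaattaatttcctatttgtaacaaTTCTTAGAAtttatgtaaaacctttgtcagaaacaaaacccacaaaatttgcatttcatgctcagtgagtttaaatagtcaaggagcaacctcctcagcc
Csn2: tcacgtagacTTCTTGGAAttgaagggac
Wfdc18: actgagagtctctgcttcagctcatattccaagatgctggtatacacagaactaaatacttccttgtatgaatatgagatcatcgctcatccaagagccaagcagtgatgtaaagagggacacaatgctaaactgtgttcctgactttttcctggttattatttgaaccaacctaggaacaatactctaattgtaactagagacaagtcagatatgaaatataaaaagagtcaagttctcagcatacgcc
A match is a description of letters and not a binding site, and in Tumor 1 members Csn1s2a, which has none, was at 0 CPM like Csn2, with Csn1s1 at 1 UMI.

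Summed UMIs of members were compared between states. Only 4 libraries had 10 or more members, and with 1 such library in Prepuberty and 1 in Tumor the planned fit gave fold changes without a test. A log2 fold change of at least 2 in size was seen for 96 genes higher and 95 lower in DCIS against Prepuberty (2.55% and 2.53% of 3762), 225 and 254 in Tumor against DCIS (5.98% and 6.75%) and 239 and 228 in Tumor against Prepuberty (6.35% and 6.06%). A test over all 6 libraries was added after the member counts were known, with edgeR's quasi-likelihood F test and Benjamini-Hochberg adjustment over 3254 genes. No gene was called in DCIS against Prepuberty by edgeR, where 155 genes (4.76%) had an unadjusted p under 0.05, and DESeq2 called 0 as well. In Tumor against DCIS and in Tumor against Prepuberty no gene was called higher (0%) and 2 were called lower (0.0615% in each), Fth1 and Lcn2 both times. These counts moved widely when single libraries were left out, as given at the end. Unadjusted p-values under 0.05 were seen for 522 genes (16%) and 434 genes (13.3%), and DESeq2 called 71 and 32 genes.

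Fth1, the ferritin heavy chain that stores iron, was at 29921, 17411, 29521, 22343, 1837 and 2364 CPM in members. The Tumor libraries lay far below the other 4 without overlap. Fth1 fell by 4.07 on the log2 scale in Tumor against DCIS (SE 0.34, edgeR adjusted p = 0.00353) and fell by 3.81 against Prepuberty (SE 0.34, adjusted p = 0.00555). The calls were lost without Tumor 1 (adjusted p 0.0530 and 0.0613), with changes of -4.07 and -3.78. They were also lost without possible doublets, defined with the markers of other cell types at the end (0.0872 and 0.0598), and the call against Prepuberty was lost with only those 2 states in the fit (0.0601). Fth1 was low in the Tumor libraries in other cells too. In other Epcam-positive cells Fth1 was at 9146, 13651, 10170, 17086, 2388 and 2581 CPM, and in fibroblast-gene cells at 16650, 13780, 20920, 30488, 3709 and 5916 CPM. Ftl1, the ferritin light chain, was at 4800, 10920, 5770, 8086, 2154 and 1330 CPM in members and did not pass, with an adjusted p of 0.0791 in Tumor against DCIS. Tumor libraries were lowest for Fth1 in all 3 kinds of cell, and the part of dissociation or library chemistry in that was not tested.

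Lcn2, lipocalin 2, which binds bacterial iron carriers, was at 9890, 9804, 8394 and 11639 CPM in Prepuberty and DCIS and at 3085 and 3021 in Tumor. It fell by 2.13 on the log2 scale in Tumor against DCIS (SE 0.24, edgeR adjusted p = 0.0188) and fell by 1.99 against Prepuberty (SE 0.24, adjusted p = 0.0311). In other Epcam-positive cells it was at 2369, 3362, 2105, 2575, 1218 and 272 CPM and in fibroblast-gene cells at 40.0 to 111 CPM. The Lcn2 calls did not hold in many of the refits, and 1 cell held 70.7% of the Lcn2 UMIs of Tumor 2. Without Tumor 1 the adjusted p was 0.157 and 0.175, without DCIS 2 it was 0.0878 and 0.0504, and without the deepest member of each library 0.153 and 0.215. Against Prepuberty the call was also lost without Prepuberty 1 (0.0634) and without DCIS 1 (0.0609).

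Beyond these 2 genes, the gene lists are described by how many tested members of a list did not overlap between the libraries of 2 states, on CPM. Over all 3254 genes such separation was common: 13.9% were above and 23.7% below in DCIS against Prepuberty, 39.8% and 13.3% in Tumor against DCIS, and 32.9% and 13.3% in Tumor against Prepuberty. Without TMM scaling the median log2 fold change of all genes was 0.48 in Tumor against DCIS, 0.28 in Tumor against Prepuberty and -0.13 in DCIS against Prepuberty, so counts above and below are read against these shares.

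Milk and secretory genes were on the higher side in DCIS. Of 20 tested, 9 (45%) were above in DCIS against Prepuberty and 0 below, among them Csn1s1, Csn2, Ltf, Trf and Folr1, with a median log2 fold change of 0.58 against -0.01 over all genes. In Tumor against DCIS, 9 of 20 (45%) were below and 3 (Mfge8, Wfdc2 and Fxyd3) above, with a median of -0.99. Mfge8 was at 264, 226, 476, 837, 1346 and 1116 CPM, with both Tumor libraries highest. Only 5 lipid genes were tested: Scd1, which desaturates fatty acids, was at 361, 236, 2029, 886, 10.7 and 115 CPM, and Scd1, Me1, Fabp5 and Plin2 were all below in Tumor against DCIS. In DCIS 1 a single member held 63.5% of the Scd1 UMIs.

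Acute inflammation genes were low in Tumor members. In Tumor against DCIS 11 of 20 tested (55%) were below and 0 above, with a median log2 fold change of -2.54, and 9 of 20 (45%) were below Prepuberty. Nfkbia, the inhibitor of NFKB that NFKB itself induces, was at 721, 1036, 1906, 1713, 496 and 361 CPM. The serum amyloid gene Saa1 was at 1665, 0, 35.3, 4527, 0 and 0 CPM, and single cells held 60.3% of its UMIs in Prepuberty 1 and 60.5% in DCIS 2. Of 9 tested genes for iron and antimicrobial proteins, 6 (66.7%) were below in Tumor against DCIS, including Fth1, Ftl1, Slpi and Chil1. The sum of the inflammation list was also lowest in Tumor in other Epcam-positive cells, at 6935, 6893, 5460, 4693, 1627 and 714 CPM against 6390, 3334, 5711, 10890, 1189 and 1100 in members. The iron and antimicrobial list summed to 7083 and 5066 CPM in other cells of Tumor against 17790 to 37850 in the other libraries. In members Fth1 and Ftl1 made up most of the sum of that list, so it largely restates the ferritin values. Both Tumor libraries thus lay below the others in both kinds of cell, and the part of dissociation was not tested. The bars of 6 gene lists show the sums, and the highest for inflammation was DCIS 2 at 10890 CPM.

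**Figure D3:**
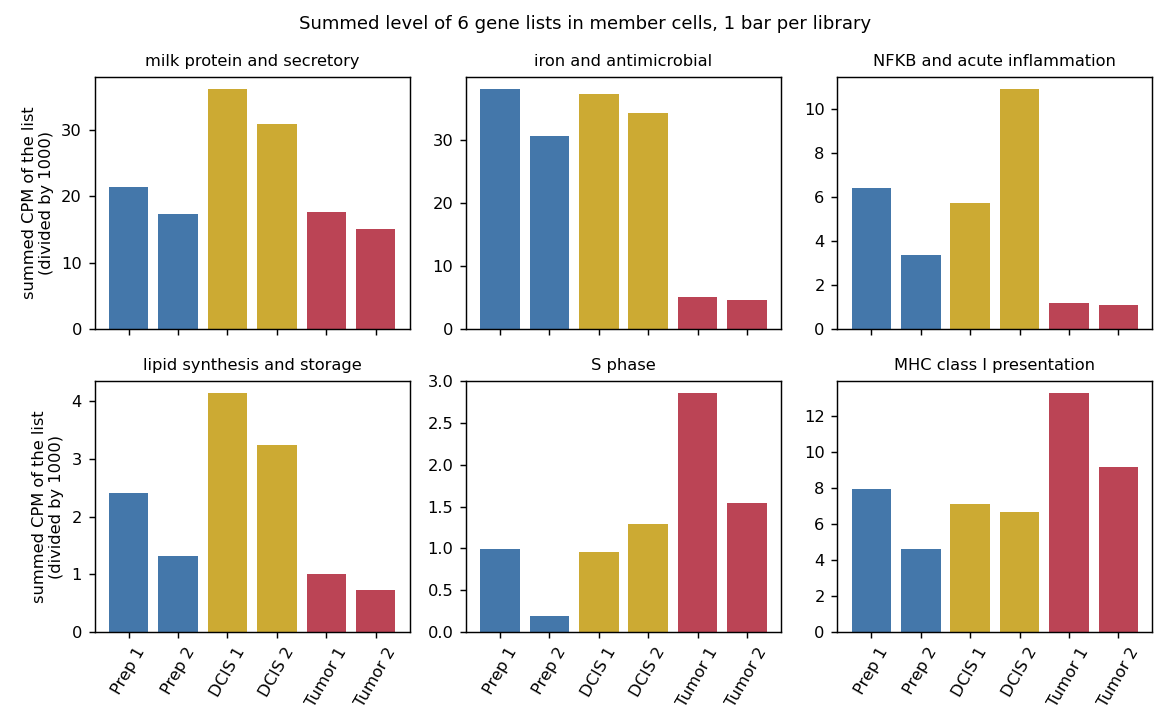
Summed CPM of 6 gene lists in members (y axis, CPM divided by 1000, from 0) in each library (x axis), 1 bar per library. Iron and antimicrobial genes, mostly Fth1 and Ftl1 by CPM, sum to 5015 and 4581 CPM in the Tumor libraries against 30650 to 38080 in the others. S-phase genes are highest in Tumor 1 at 2858 CPM.

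S-phase genes, which copy DNA, had their highest sums in Tumor members, although the rule caps cells in division. The list summed to 990, 198, 959, 1287, 2858 and 1543 CPM in members, with DCIS 1 below Prepuberty 1, and to 674, 392, 1743, 1164, 2125 and 2761 CPM in other Epcam-positive cells, which were also highest in Tumor. Of 17 tested, 14 (82.4%) were above in Tumor against Prepuberty, 11 (64.7%) in Tumor against DCIS and 7 (41.2%) in DCIS against Prepuberty, and 0 were below in any. The helicase subunit Mcm2 was at 27.7, 0, 23.5, 48.9, 109 and 98.5 CPM, and Mcm3 at 37.0, 4.82, 23.5, 34.3, 195 and 115. Class I antigen presentation genes were above in Tumor against DCIS in 8 of 14 (57.1%), including B2m, H2-K1 and H2-D1, with a median log2 fold change of only 0.19. Heat shock genes were above in DCIS against Prepuberty in 7 of 12 (58.3%) and 0 below, with Hspb1 at 1336, 2341, 2582, 6852, 688 and 1018 CPM. The list summed to 5720, 6971, 8329, 16780, 9288 and 7716 CPM in members, highest in DCIS 2. In other Epcam-positive cells it summed to 6151, 7873, 15550, 14080, 7763 and 6459 CPM, with both DCIS libraries highest. Interferon genes were mixed, with 8 of 20 (40%) above in Tumor against DCIS, near the background of 39.8%.

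Regulators of luminal progenitors showed no common direction over the 3 comparisons. In DCIS against Prepuberty 6 of 13 tested (46.2%) were below, against 23.7% of all genes, and 2 (15.4%) above, with a median log2 fold change of 0.07. In Tumor against DCIS 4 (30.8%) were above and 2 (15.4%) below, and in Tumor against Prepuberty 3 (23.1%) and 4 (30.8%). Kit, the receptor tyrosine kinase that marks luminal progenitors, was at 74.0, 91.5, 23.5, 29.4, 45.3 and 328 CPM and was detected in 10 of 18, 6 of 7, 2 of 12, 5 of 18, 14 of 43 and 6 of 6 members. Both DCIS libraries were lowest, and Tumor 2, where all 6 members held it, was highest. Aldh1a3, an enzyme of retinoic acid synthesis, was at 194, 597, 76.5, 122, 115 and 164 CPM. The stress-responsive factor Cebpd was at 869, 612, 1353, 1047, 349 and 361 CPM, below the others in both Tumor libraries, and Stat5a, which relays prolactin, was highest in both Prepuberty libraries, at 64.7 CPM in the first, and at 23.5 CPM or less in the others. None of the 13 tested genes was called in any comparison.

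The summed list of myoepithelial and basal genes was high in the members of Tumor 1. The 18 genes of the list summed to 629, 1705, 294, 827, 6295 and 1051 CPM, and Tumor 1 members lay above the 5016 CPM of other Epcam-positive cells of that library, whereas the members of the other 5 libraries lay below theirs (1092 to 4341 CPM). Part of the list carried that sum: 11 of the 18 genes had a UMI in Tumor 1 members, and Lgals7, given below, was a large share. Of the 8 myoepithelial markers counted at the end, Krt5, Acta2, Myh11, Mylk, Oxtr and Trp63 were at 0 there. The luminal keratins Krt18 and Krt8 were detected in 43 and 42 of 43 members. The low Ltf and basal genes such as Krt14 go against the luminal progenitor name for Tumor 1, whereas these keratins and the markers at 0 do not. Of the 6 tested genes of the list, 2 (Krt14 and Sfn, 33.3%) were above and 0 below in Tumor against DCIS, where 39.8% of all genes were above.

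The remaining lists held few tested genes or no common direction. In Tumor against DCIS the libraries did not overlap for 3 genes above and 2 below of 12 luminal keratin and junction genes (25% and 16.7%), 4 and 1 of 9 genes of the RB and p53 pathways, 4 and 2 of 18 immediate early genes, 2 and 1 of 15 glycolysis and hypoxia genes and 2 and 1 of 4 Notch genes. For 3 mesenchymal genes 2 above and 0 below, and for 3 hormone-sensing genes 0 and 0. No MHC class II, fibroblast, endothelial or lymphocyte gene passed the filter on low counts, and 1 gene each of the macrophage list (Cd68) and the pericyte and Schwann lists did.

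The summed members of Tumor 1 and Tumor 2 were near each other in Lcn2, Fth1, Trf, Cebpd and Mfge8, whose values are given above. In Tumor 2, 1 cell held 64 of the 80 Trf UMIs, and 1 cell most of the Lcn2 UMIs. For Trf and Lcn2 the likeness of the sums thus rests on single cells. The members were far apart in the genes that follow, which were picked after their values were seen. In Tumor 1 all 43 members held Cdkn2a, a cell cycle inhibitor gene known to be raised in cells whose retinoblastoma protein is inactivated, at 1205 CPM against 1363 in other Epcam-positive cells. In Tumor 2 no member held a Cdkn2a UMI, whereas the other Epcam-positive cells there had 1868 CPM. The other cells of Tumor 1 and Tumor 2 were deeper, at medians of 12858 and 16506.5 UMIs against 8738 and 8223.5 in members. Of them, 844 of 3504 and 546 of 1740 had at most 1 cycling gene, the limit set for members. T antigen was detected in 27 of 43 members of Tumor 1 (62.8%, 46.7 to 77.0) and in 1 of 6 of Tumor 2 (16.7%, 0.421 to 64.1), where the shares of other Epcam-positive cells were 68.9% and 55.4%. In fibroblast-gene cells the shares were 13.6% and 48.8%, at median depths of 9749 and 14399 UMIs against 8738 and 8223.5 in members. Those of Tumor 2 held 1253 CPM of Cdkn2a, against 169 in Tumor 1, and are not used as a background. In endothelial-gene cells T antigen was detected in 2 of 57 and 0 of 24. Tumor 2 members held 1 T antigen UMI in all, which is too few to tell expression from free RNA, and the interval of their share is wide. The comparison is between 2 libraries and was not tested.

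Other genes also differed between these libraries. Krt14, a basal keratin, was detected in 33 of 43 members of Tumor 1 and 3 of 6 of Tumor 2. The galectin gene Lgals7, the chemokine gene Cxcl14 and the matrix protein gene Mgp were at 2674, 1933 and 1696 CPM in Tumor 1 and 0 in Tumor 2, where they were at 657, 83.9 and 342 CPM in other Epcam-positive cells. Osteopontin (Spp1) was in 43 of 43 members of Tumor 1 at 7918 CPM and in 4 of 6 of Tumor 2 at 722 CPM, of which 1 cell held 79.5%. Ltf, Kit and Csn1s1 went the opposite way and were detected in 6 of 6, 6 of 6 and 4 of 6 members of Tumor 2 against 7 of 43, 14 of 43 and 1 of 43 of Tumor 1. T antigen stood at 277 CPM in Tumor 1 members against 254 in other Epcam-positive cells of that library.

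Earlier states had few T antigen UMIs in members. It was detected in 0 of 18 and 0 of 7 Prepuberty members, where 3 counts, taken as the limit that a count of 0 allows, come to 16.7% and 42.9% of the cells. That limits the cells with a UMI and not the cells that express the transgene. It was detected in 1 of 12 and 2 of 18 DCIS members (8.33% and 11.1%). The other Epcam-positive cells had 10.8%, 1.16%, 22.8% and 10.9%, and fibroblast-gene cells had it in 3 of 1850, 1 of 1365, 2 of 501 and 0 of 1049, at median depths of 10587.5 UMIs in Prepuberty 1, 7763 in DCIS 1 and 6986 in DCIS 2 against 9496, 10252 and 9159.5 in members. After thinning to 3000 UMIs the share was 38.1% of 42 members in Tumor 1, near the 39.6% of other cells, and 0 of 12 and 0 of 16 in DCIS. Cdkn2a was at 0 in both Prepuberty libraries and in DCIS 2 and at 82.3 CPM in DCIS 1. The plot of the transgene, Cdkn2a and basal genes sets the members beside the other cells.

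**Figure D4:**
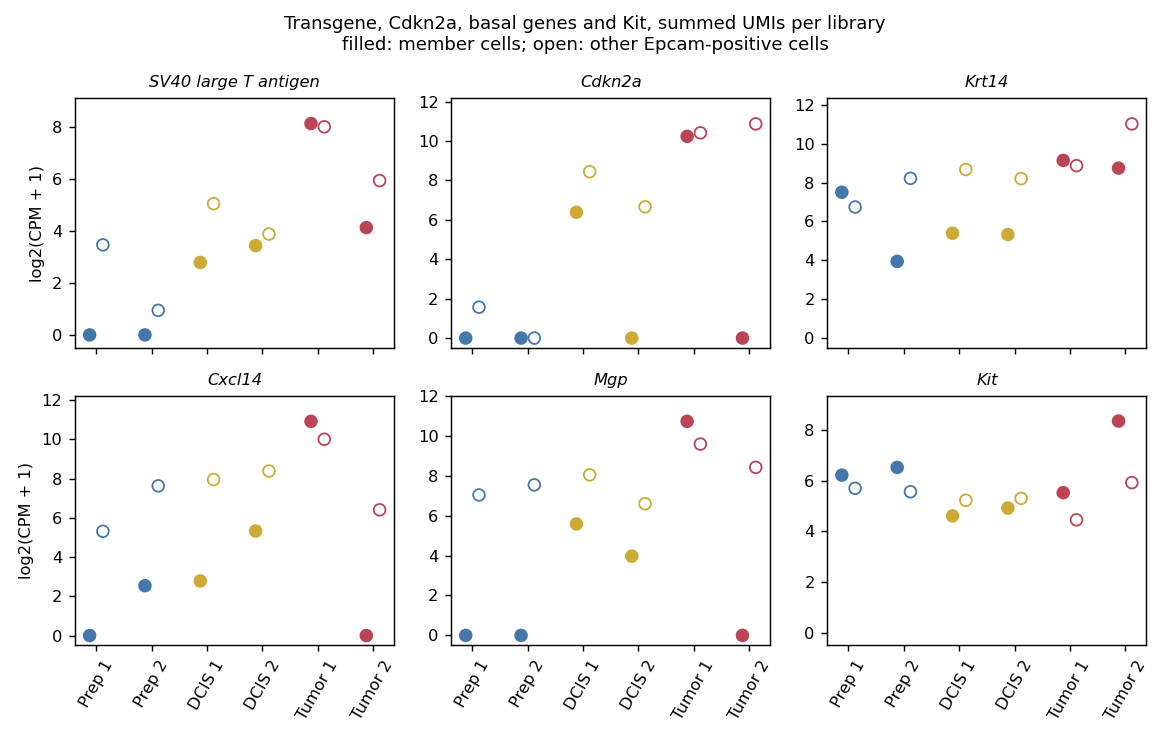
Levels of the SV40 large T antigen, Cdkn2a, Krt14, Cxcl14, Mgp and Kit (y axis, log2 of CPM + 1; each panel from 0) in each library (x axis), with filled points for members and open points for other Epcam-positive cells. Cdkn2a, Cxcl14 and Mgp are high in Tumor 1 members and at 0 in Tumor 2 members, and Kit is highest in Tumor 2 members at 328 CPM.

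Whether members followed the other Epcam-positive cells between states was tested as an interaction of state and cell class, with the library as a term, in the 4 libraries with 10 or more members (13818 genes, 1 residual degree of freedom). Prepuberty and Tumor are 1 library each in that fit, so the spread between libraries came from the 2 DCIS libraries alone, and the lone libraries were assumed to vary like them. The rule capped cycling genes in members, and the other cells had no such cap. Of their 1046, 258, 1723, 1689, 3504 and 1740 cells in the 6 libraries, 642, 240, 913, 1191, 844 and 546 had at most 1 cycling gene. The make-up of the other cells thus changed between states. Calls without their cycling cells are given at the end. In DCIS against Prepuberty 4 genes (0.0289%) changed more upward in members and 16 (0.116%) more downward. Tumor against DCIS had 29 (0.21%) and 15 (0.109%), and Tumor against Prepuberty 9 (0.0651%) and 8 (0.0579%). With all 6 libraries the counts were 11 and 15, 23 and 11, and 26 and 12 (0.101% and 0.138%, 0.212% and 0.101%, and 0.239% and 0.11% of 10868 genes), and 13, 20 and 10 genes were called in both fits with the same direction.

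The next values are from the fit with 6 libraries, where each state has 2. In Tumor against DCIS the members' change exceeded that of other cells for some genes high in Tumor 1. The difference of log2 fold changes was 3.82 (SE 0.63, edgeR adjusted p = 2.39e-06) for the chemokine Cxcl14 and 4.49 (SE 0.97, adjusted p = 0.00295) for Pla2g7, a lipoprotein-associated phospholipase. The Tumor libraries did not go the same way for Cxcl14, which was at 5.88 and 39.2 CPM in DCIS members and at 1933 and 0 in those of Tumor 1 and Tumor 2, against 246 and 333 and then 1027 and 83.9 in other cells. Pla2g7 was at 0 and 4.89 CPM in DCIS members and at 925 and 65.7 in Tumor. Krt14 was called with 4 libraries and not with 6. The difference was negative for Trf, at -1.81 (SE 0.44, adjusted p = 0.0162), for Scd1, at -3.08 (SE 0.55, adjusted p = 3.42e-05), and for Plin2, a coat protein of lipid droplets, at -2.04 (SE 0.49, adjusted p = 0.0150). Other secretory genes had positive differences: the milk protein Lalba had 4.52 (SE 0.85, adjusted p = 0.000120), with all 26 of its Tumor 2 UMIs in 1 cell, and Ltf had 2.81 in Tumor against Prepuberty (SE 0.45, adjusted p = 4.43e-07), and neither was called with 4 libraries. By its levels above, Ltf was lower in Tumor 1 members than in both Prepuberty libraries and higher only in Tumor 2. The log2 ratio of members to other cells was 2.528 and 1.239 in Prepuberty and 4.179 and 5.455 in Tumor. In Tumor 1, 1 cell held 77 of the 86 Ltf UMIs. Spp1 had a difference of -3.64 (SE 0.46, adjusted p = 1.51e-11) in Tumor against DCIS: in other cells it was at 318 and 270 CPM in DCIS and at 6162 and 2247 in Tumor, and in members at 1647 and 2834 in DCIS and at 7918 and 722 in Tumor. Members of Tumor 1 were thus above DCIS members and those of Tumor 2 below.

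In DCIS against Prepuberty most calls were genes held mainly by 1 cell. Of the 26 genes called with 6 libraries, 14 had at least 50% of the UMIs of their highest library in 1 member. In Tumor against DCIS 9 of 34 did, and in Tumor against Prepuberty 11 of 38. The highest library was taken among the libraries of the 2 states compared. The deepest member of Prepuberty 1, with 32716 UMIs, held 501 of 505 UMIs of the fatty acid carrier Fabp4, 58 of 58 of Cd36 and all of the endothelial genes Cldn5 (32), Pecam1 (15) and Egfl7 (13). That cell also held 145 Wfdc18, 22 Csn3 and 20 Ltf UMIs and no Krt14. In DCIS 2, 1 member held 559 of 601 UMIs of the chemokine Ccl5 with no UMI of Cd3e, Nkg7 or Gzmb. Csn2 had a difference of -2.27 (SE 0.54) with 6 libraries, with 70.4% of its DCIS 1 UMIs in 1 cell, and its level was higher in DCIS in both classes of cell. The plot of UMIs against the share in 1 cell separates the calls of the 3 comparisons.

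**Figure D5:**
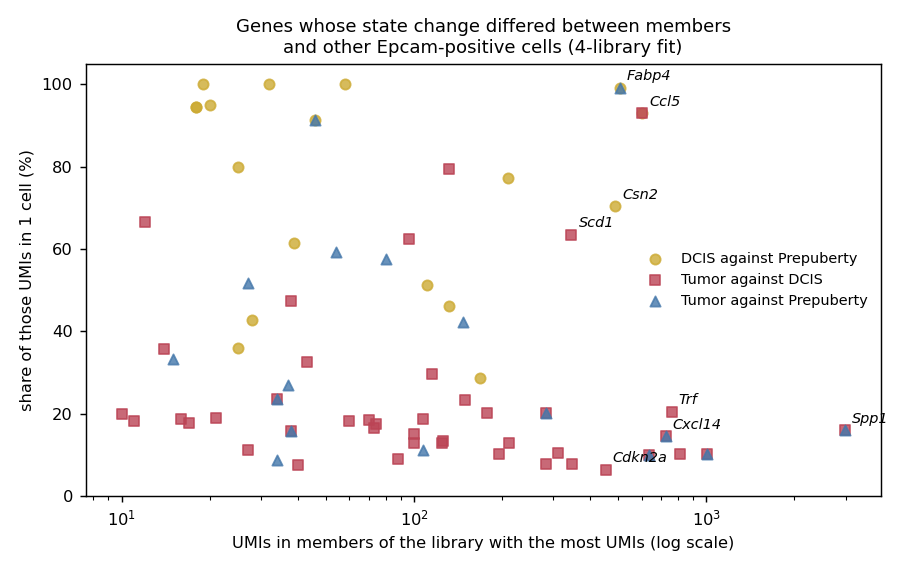
Genes called in the 4-library interaction test, with the UMIs in members of the library that held the most (x axis, log scale) against the share of those UMIs in 1 cell (y axis, percent). Most Tumor against DCIS genes lie low, such as Cdkn2a at 6.42%, and DCIS against Prepuberty genes such as Fabp4 lie near 100%.

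Markers of other cell types were detected in members. Of 8 myoepithelial markers, 2 to 6 had a UMI in each library and 1 to 3 members per library held 2 or more of them. They summed to 393, 554, 76.5, 122, 571 and 542 CPM in members against 501, 1799, 1248, 2027, 550 and 2140 in other Epcam-positive cells, so that Tumor 1 members were not below the other cells there. Krt5, a keratin of basal cells, was at 0 in members of 5 of 6 libraries. All 7 fibroblast markers had a UMI in Prepuberty 1, where 8 of 18 members (44.4%) held 2 or more of them, against 51.1% of other Epcam-positive cells. In the other libraries 0 to 2 members held 2 or more, with summed levels of 5.88 to 57.8 CPM against 171 in Prepuberty 1. Endothelial markers summed to 305 CPM in Prepuberty 1 against 144 in its other Epcam-positive cells, mostly in the single cell above, and to 0 to 29.3 elsewhere. Macrophage markers summed to 27.7 to 88.1 CPM, the 5 pericyte or Schwann markers to 46.2 in Prepuberty 1 and 0 to 5.88 elsewhere, with all 5 at 0 in DCIS 2 and Tumor 2, and lymphocyte markers had 0 to 3 UMIs in any library. Without possible doublets, taken as members with 2 or more markers of 1 other cell type and the 5% of members with most UMIs in each library, 7, 3, 10, 14, 35 and 4 members were left. The 6-library edgeR fit then called 0 genes between states in each of the 3 comparisons, and Fth1 had changes of -3.89 in Tumor against DCIS and -4.33 in Tumor against Prepuberty.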

How the data were processed

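Per the file headers, the deposited matrices hold raw UMI counts per gene and barcode made by the authors with Cell Ranger 3.0.2. The reference build of the single-cell libraries is not given in the sources used here, beyond mm10 among the submitters' processing notes. Samples were grouped by the labels. Cells with at least 200 detected genes and under 10% mitochondrial UMIs were kept. The members, gene lists and tests were chosen with earlier results of these data known.

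Counts of members were summed per library and compared between states with edgeR 4.0.16 (quasi-likelihood F test, TMM scaling, filterByExpr, Benjamini-Hochberg, threshold 0.05, R 4.3.3). The 14 genes of the rule were left out of the tests. The planned fit took libraries with at least 10 members. That left 1 library each in Prepuberty and Tumor (1 residual degree of freedom), so by the plan it gave folds only. A fit over all 6 libraries (3 residual degrees of freedom) was added after the member counts were seen. The interaction fit compared members with other Epcam-positive cells, and with 4 libraries its spread came from the 2 DCIS libraries. Python 3.11.15 and SciPy 1.17.1 gave exact Clopper-Pearson 95% intervals. A count of 0 allows up to 3 counts of the total. Thinning drew 3000 UMIs per cell, leaving out shallower cells.

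Named genes were those called with libraries that did not overlap, the most abundant of 23 lists, and, beside other cells, the 20 highest and 10 lowest by median ratio. Genes held by single cells were picked after their sums were seen. Alternatives were DESeq2 1.42.0, no TMM, no filter, each library left out, a replicate block, only 2 states, other limits of the rule and removal of possible doublets (members with 2 or more markers of 1 other cell type and the 5% with most UMIs); no doublet caller was run. On data simulated for Tumor against DCIS with 3254 genes, the 6-library fit recovered 21% of genes changed by 2 and 55.8% of those changed by 3 on the log2 scale, with 6 false calls. The interaction fit recovered 0.952% and 13.7%, with 0 false calls.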

Additional observations from a re-analysis of the deposited data

Results flagged for a closer look

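The change of members between states differed from that of other Epcam-positive cells for 13, 20 and 10 genes in DCIS against Prepuberty, Tumor against DCIS and Tumor against Prepuberty, in the edgeR interaction test with 4 libraries and again with 6. The 10 with the largest differences in each comparison follow, and Cxcl14 and Anxa8 stand in both Tumor comparisons. Prepuberty and Tumor are 1 library each in the fit with 4. Values are differences of log2 fold changes with 4 libraries, members minus other cells, and no cause was tested. No state has 4 libraries, so single libraries were not tested as outliers.

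In DCIS against Prepuberty the differences were 7.09 for 2210407C18Rik (9 UMIs in its highest library), -6.24 for Cd36, -6.11 for Fabp4, -4.78 for Ece1, 3.95 for Ccl5, -3.63 for Postn, -3.59 for Tagln, -3.52 for Egr1, 3.31 for Cxcl5 and -2.76 for Palld. The highest library is taken among those of the 2 states compared. A single member there held 100% of the Cd36 UMIs, 99.2% of Fabp4, 80.0% of Ece1, 93.0% of Ccl5, 94.4% of Postn and 95.0% of Cxcl5. Of Tagln 1 member held 51.4% in Prepuberty 2, which is not in the fit with 4 libraries, and for Egr1 (36.0%) and Palld (42.9%) it was less.

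In Tumor against DCIS the differences were 14.47 for Il17b, 13.36 for Emb and 13.14 for Ccdc68, which depend on the prior count because a state was at 0 UMIs. They were 5.89 for Ptn, 5.15 for Pla2g7, 4.46 for Cxcl14, 3.34 for Ly6d, -3.93 for Scd1, -3.68 for Bglap3 and -3.32 for Anxa8. The only Tumor library behind these values is Tumor 1. Members of Tumor 1 and Tumor 2 were at 29.3 and 0 CPM of Il17b, 754.5 and 65.7 of Emb, 26.7 and 49.3 of Ccdc68, 90.6 and 32.8 of Ptn, 925 and 65.7 of Pla2g7, 1933 and 0 of Cxcl14, and 752 and 640 of Ly6d. They were at 10.7 and 115 of Scd1 and 16.0 and 246 of Anxa8. Emb was held by 42 and Pla2g7 by 41 of the 43 members of Tumor 1, whereas 1 member held 63.5% of Scd1 in DCIS 1 and 62.5% of Bglap3 in DCIS 2.

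In Tumor against Prepuberty they were 14.91 for Mgp, 12.94 for Cxcl14 and -12.40 for Ly6c1, with a state at 0 UMIs in each, and -5.54 for Anxa8, 4.83 for Pdlim4, 4.26 for Cldn10, -4.24 for Spp1, -4.17 for Dmkn, -3.93 for Angptl4 and -2.86 for Crabp2. These too rest on Tumor 1: members of Tumor 2 held no UMI of Mgp, Cxcl14 or Pdlim4, against 1696, 1933 and 285 CPM in Tumor 1, and for Dmkn they were at 673 CPM against 18.7 in Tumor 1. A single member held 91.3% of the Ly6c1 UMIs of Prepuberty 1, and 57.5% of Angptl4.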

How the results depend on the processing

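Counts of genes moved with most settings, and the cause was not tested. In the planned 4-library fit, genes past a log2 fold change of 2 numbered 3220, 3996 and 4162 without the filter in DCIS against Prepuberty, Tumor against DCIS and Tumor against Prepuberty, and in the first 107 with only the 2 states and 127 with Elf5 not required. Leaving out 1 library gave 107 to 326, 429 to 615 and 463 to 465. In the 6-library fit, DCIS against Prepuberty called 24 without the filter. Tumor against DCIS called 71 by DESeq2, 1 without TMM, 199 without the filter, 8 with only the 2 states, 0 without possible doublets and 1 without the deepest members. Tumor against Prepuberty called 32, 1, 165, 0, 0 and 1, and 1 each with the rule read on thinned cells, Elf5 not required or at least 10 Wfdc18 UMIs. Leaving out 1 library gave 0 to 2, 1 to 74 and 1 to 40: without Tumor 2, 74 and 40 in the Tumor comparisons, without Prepuberty 2, 71 and 23, without Prepuberty 1, 42 and 6, and without Tumor 1, 1 and 1. The replicate block, whose numbers share only a label (correlations of 0.086, -0.028 and 0.040), gave 329 in the 4-library fit for DCIS against Prepuberty and 0, 20 and 6 with 6 libraries. Interaction calls were 37, 74 and 47 with cycling cells left out of the other cells, and for Tumor against Prepuberty 38 with 6 libraries, 42 without TMM, 33 without the filter and 48 without cycling cells. Leaving out 1 library gave 11 to 40, 18 to 52 and 21 to 74: with 6 libraries, DCIS against Prepuberty had 11 without Prepuberty 2, 40 without Tumor 1 and 39 without Tumor 2, Tumor against DCIS 24 without Prepuberty 2, 22 without DCIS 1 and 18 without DCIS 2, and Tumor against Prepuberty 29 without Prepuberty 1, 31 without DCIS 1, 30 without DCIS 2, 74 without Tumor 1 and 31 without Tumor 2. Some differences reversed. Over the libraries left out, Rassf9 ran from -2.23 (without Tumor 2) to 13.85 and Apod from -9.20 (without Tumor 2) to 8.20 in Tumor against DCIS. In Tumor against Prepuberty, Cck ran from -0.84 to 16.49, Apod from -5.41 to 11.49 and Rassf9 from -3.39 to 5.88, each lowest without Tumor 2, and Sncg from -13.31 to 0.67 (without Prepuberty 1). Shares with Elf5 not required were 6.11%, 6.04%, 2.36%, 4.69%, 5.81% and 0.630%; of all kept cells 0.410%, 0.194%, 0.379%, 0.450%, 0.961% and 0.230%, with Tumor 1 highest; and 1.00% thinned in Prepuberty 2. Thinned T antigen shares were 0% and 0% in DCIS and 38.1% in Tumor 1. For named genes 267 results kept side and direction and 62 lost the call. The planned fit with the rule read on thinned cells was not run, since too few libraries kept 10 members, and without possible doublets it gave only Tumor against DCIS.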
